A study of Mus musculus with 20 samples.

Results

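The microRNAs (miRNAs) described here are the mouse entries mmu-miR-210-3p, mmu-miR-210-5p, mmu-miR-103-3p and mmu-miR-107-3p, called without the prefix from here on. They were taken by name from the deposited tables and make up 4 of 1481 measured features. All 4 were present. They were measured by small RNA sequencing in primary cortical neurons from E15 mouse embryos, grown for 7 days and then held for 12 h in 1 of 2 conditions. Normoxia was the ordinary incubator (5% CO2, 37 °C) with 25 mM glucose and 0.2 mM pyruvate in the medium. Oxygen-glucose deprivation (OGD), a culture model of ischaemia, was 1% O2 and 5% CO2 at 37 °C in the same kind of medium without that glucose and pyruvate, so loss of oxygen and loss of fuel cannot be told apart. Neurons were labelled wild type or ciRS-7 knockout; ciRS-7, also called Cdr1as, is a neuronal circular RNA, and the knockout is constitutive. The strain label C57BL/6N-Cdr1asem1Nikr stands on all samples, wild types included. The 4 groups (wild-type normoxia, wild-type OGD, knockout normoxia, knockout OGD) have 5 libraries each, 20 in all, which the series' design text calls biological replicates. ciRS-7 itself was not analysed here, so no value below checks the genotype.

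miRNAs are short RNAs that guide Argonaute proteins to messenger RNAs, mainly through the seed, bases 2 to 8 from the 5′ end. A hairpin precursor yields a 5p and a 3p arm, of which usually only 1, the guide, accumulates. miR-210 is transcribed under hypoxia-inducible factor (HIF) in many cell types, and its 3p arm, the guide, is known for repressing the iron-sulphur cluster assembly protein ISCU and other mitochondrial genes. miR-103 and miR-107 lie in introns of the pantothenate kinase genes, which encode the first enzyme of coenzyme A synthesis. They have been reported to respond to hypoxia and to repress Dicer, the enzyme that cuts miRNA precursors.

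The mature sequences, from RefSeq (GRCm38.p6), are printed with the seed in capitals because the seed shows which of these miRNAs can share targets.
miR-210-3p: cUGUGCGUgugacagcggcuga
miR-210-5p: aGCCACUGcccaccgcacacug
miR-103-3p: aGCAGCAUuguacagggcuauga
miR-107-3p: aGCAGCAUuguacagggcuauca
The seeds of miR-210-3p and miR-210-5p were found in 0 other features among the 1248 that had a RefSeq sequence. miR-103-3p and miR-107-3p shared their seed only with each other.

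miR-103-3p and miR-107-3p are both 23 bases long and differ at 1 base, G22C, counted from the 5′ end with the base of miR-103-3p first. The differing base is in capitals here.
miR-103-3p: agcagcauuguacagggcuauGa
miR-107-3p: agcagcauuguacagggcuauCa
A read that ends before base 22 therefore cannot be given to either by its sequence. How such reads were divided is not given in the sources used here, and the values of this pair are read with that limit.

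The hairpins place the arms in the genome (RefSeq, GRCm38.p6), with both mature arms in capitals. Mir210 lies on the minus strand at chr7:141221384-141221493, in no annotated host gene, with Rassf7 the nearest coding gene at 2726 bases.
Mir210: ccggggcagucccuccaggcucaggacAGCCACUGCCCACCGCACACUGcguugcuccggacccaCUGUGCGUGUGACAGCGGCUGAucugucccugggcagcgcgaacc
miR-103-3p can come from either of 2 loci, both on the plus strand: Mir103-1 at chr11:35782396-35782481 in an intron of Pank3, and Mir103-2 at chr2:131288052-131288137 in an intron of Pank2. Mir107 lies on the minus strand at chr19:34820687-34820773 in an intron of Pank1. The 3p arm, on the right, is identical in both Mir103 hairpins, so its reads carry no record of the locus.
Mir103-1: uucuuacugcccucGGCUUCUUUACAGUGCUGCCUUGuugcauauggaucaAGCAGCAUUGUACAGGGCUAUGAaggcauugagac
Mir103-2: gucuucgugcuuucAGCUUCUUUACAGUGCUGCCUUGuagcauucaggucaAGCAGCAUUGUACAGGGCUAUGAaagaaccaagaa
Mir107: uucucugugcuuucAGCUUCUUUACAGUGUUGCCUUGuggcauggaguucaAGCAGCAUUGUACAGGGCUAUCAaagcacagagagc

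Values are given as CPM, read counts scaled to library size with the authors' factors, computed from whole reads that were recovered from the deposited scores. Libraries held 2492065 to 12477032 reads in normoxia and 1160582 to 4374002 after OGD, so the OGD libraries were in general shallower; 3 reads stood for 0.249 to 2.55 CPM. Wild-type normoxia replicate 5 stood apart: on the first principal component of the 423 features whose log2(CPM + 0.5) averaged 3 or more, it lay at -0.88, against -14.46 to -13.09 for the other 4 libraries of its group and 8.95 to 15.05 for wild-type OGD. The neuronal markers miR-124-3p, miR-128-3p and miR-138-5p summed to 47186.8 to 84987.7 CPM in normoxia and 40436.0 to 53493.9 CPM after OGD. That sum was almost all miR-128-3p; miR-124-3p lay at 2738.9 to 4106.9 CPM in normoxia and 4900.1 to 6484.2 after OGD, and miR-138-5p at 210.9 to 259 and 368.8 to 541.1, both higher without overlap. The myeloid markers summed to at most 4.388 CPM in any library. Oligodendrocyte markers summed to 5.857 to 12 CPM in normoxia and 9.537 to 15.28 after OGD, red blood cell markers to 139.9 to 177.1 and 166.3 to 226 (nearly all miR-486a-5p, with miR-451a at most 3.477 and miR-144-3p at most 1.699 CPM), endothelial markers to 309.6 to 392.8 and 269.1 to 380.7, and smooth muscle and pericyte markers to 29.92 to 52.81 and 35.14 to 64.38. No marker was at 0 in all libraries of a group, and the part of other cell types in the results below was not tested. In bulk RNA, fewer cells of a type and less RNA per cell cannot be told apart.

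miR-210-3p, the HIF-linked guide arm, rose after OGD in both genotypes. In wild-type neurons it stood at 19.1, 16.6, 28.7, 14.4 and 12.8 CPM in normoxia (replicates 1 to 5) and at 128, 127, 126.6, 110.6 and 47.2 CPM after OGD. All 5 OGD libraries lay above all 5 normoxic ones, 4 of them close together and replicate 5 well below its group. Mean levels were 18.3 ± 6.28 CPM without and 107.9 ± 34.7 CPM with OGD (SD, n = 5 each). The log2 fold change on the log2(CPM + 0.5) scale was 2.49 (SE 0.26, 95% interval 1.95 to 3.04; adjusted p = 1.0e-06, limma with Benjamini-Hochberg adjustment over all features). In the same comparison 23.1% of all features passed the threshold of 0.05, 18.7% as higher and 4.4% as lower after OGD, 34.2% had an unadjusted p under 0.05, and 13.5% lay higher without overlap. Among 425 features whose log2(CPM + 0.5) averaged 3 or more, 26 rose by more than miR-210-3p and 27.3% lay higher without overlap. Without OGD replicate 5 the change was 2.77.

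Knockout neurons showed miR-210-3p at 22.4, 15.9, 47.7, 19.6 and 24.1 CPM in normoxia and at 119, 72.2, 183.9, 70.1 and 105.9 CPM after OGD. The groups again did not overlap, and the highest library of each condition carried the number 3. Means were 26.0 ± 12.6 and 110.2 ± 46.3 CPM (SD, n = 5 each). This was a log2 fold change of 2.08 (SE 0.27, 95% interval 1.50 to 2.66, adjusted p = 2.3e-05 by limma), in a comparison that called 24.5% of all features, 18.8% as higher and 5.75% as lower. There, 34.3% had an unadjusted p under 0.05 and 15.3% lay higher without overlap. Of 420 features with a mean of at least 3 on the log2 scale, 25 rose by more and 33.6% lay higher without overlap. Ordered by mean, miR-210-3p ran from wild-type normoxia through knockout normoxia and wild-type OGD to knockout OGD. Both normoxic groups overlapped, and so did both OGD groups. Knockout normoxia and wild-type OGD met at single libraries, 47.7 CPM in the first and 47.2 CPM in the second.

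By rank within a library, miR-210-3p was a mid-abundance miRNA that moved up the list. It ranked between 295 and 373 of all features in wild-type normoxia and between 200 and 298 after OGD. In knockout neurons the ranks were 261 to 352 and 183 to 253. Ranks do not depend on the scaling of a library. In knockout neurons the rank ranges did not overlap, while in wild-type neurons OGD replicate 5, at 298, fell just inside the normoxic range.

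**Figure D1:**
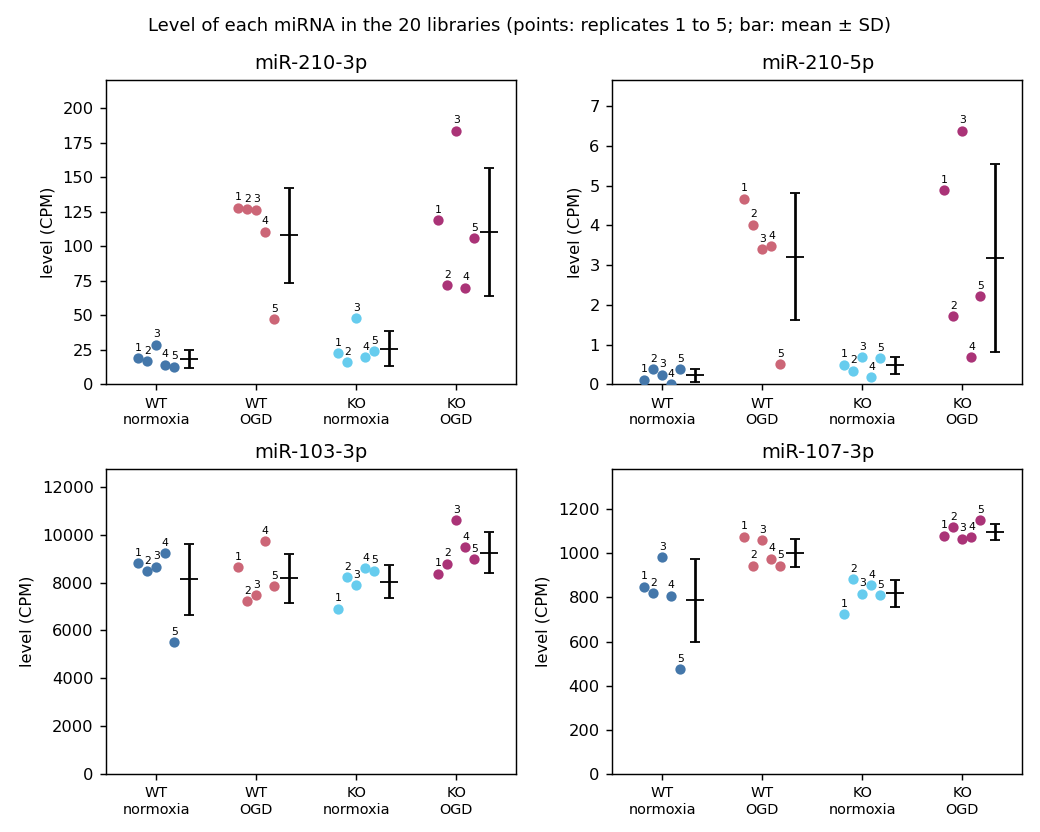
Level of each miRNA in each of the 20 libraries (CPM, linear axis from 0), by group of 5; points carry the replicate number and bars give mean ± SD. miR-210-3p and miR-210-5p separate normoxia from OGD within each genotype, while the groups of miR-103-3p overlap and miR-107-3p moves by far less.

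The fold changes depend on the scaling of the libraries. On the authors' scale the median log2 fold change of features with a mean of at least 3 was 0.22 in wild-type and 0.20 in knockout neurons. Each library was also centred on its own median over the features with a mean of at least 3. This moved all changes down by 0.56 and 0.51, which left the median over all features in wild-type neurons at -0.24 in place of 0.32. A rise smaller than that shift turns sign by construction. With that centring miR-210-3p still rose, by 1.93 in wild-type neurons (adjusted p = 2.4e-05, limma) and by 1.57 in knockout neurons (adjusted p = 6.4e-05, limma). Quantile normalization gave 1.90 and 1.59, both past the threshold. The rise of miR-210-3p was therefore called under each of these scalings. The split of all calls was not stable: 276 higher and 65 lower in wild-type neurons became 108 and 265 with centring and 141 and 191 with quantile normalization, and 278 and 85 in knockout neurons became 112 and 324, and 141 and 186.

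**Figure D2:**
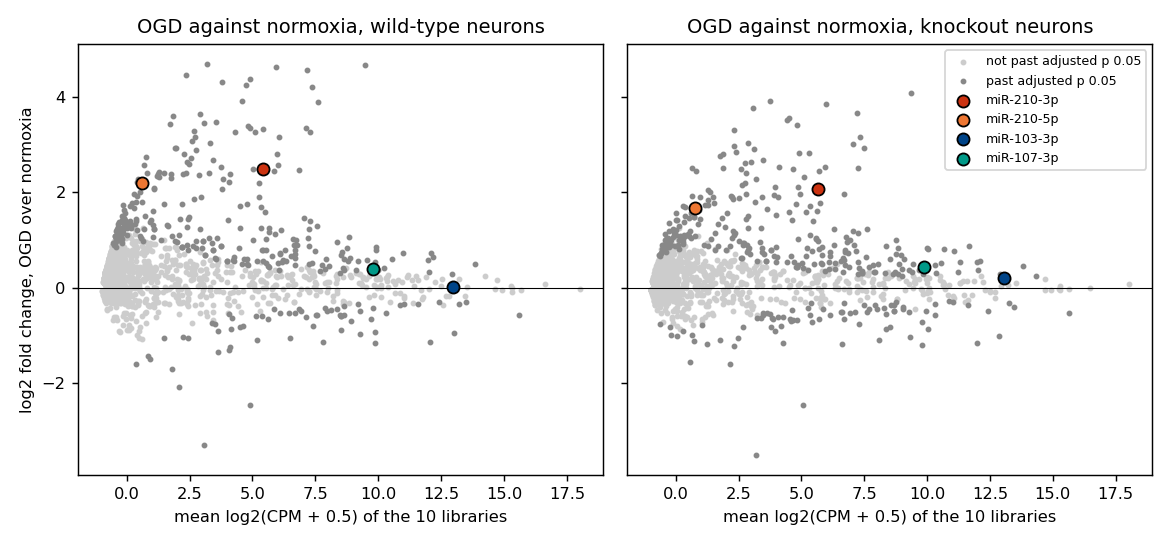
Log2 fold change after OGD (vertical) against mean log2(CPM + 0.5) (horizontal) for all features, in wild-type and knockout neurons, with the 4 miRNAs marked. miR-210-3p lies at 2.49 and 2.08, with only 26 and 25 features of a mean of at least 3 above it, whereas miR-103-3p lies near 0.

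miR-210-5p, the other arm of the same hairpin, was close to the detection limit. Its reads numbered 1, 3, 2, 0 and 1 in wild-type normoxia and 19, 10, 4, 5 and 1 after OGD. Knockout libraries held 6, 3, 4, 2 and 6 reads in normoxia and 15, 4, 16, 2 and 4 after OGD. Because the OGD libraries were shallower, equal read numbers meant a higher CPM there. The mean was 0.224 ± 0.164 CPM in wild-type normoxia, 3.21 ± 1.60 after OGD, 0.476 ± 0.212 in knockout normoxia and 3.18 ± 2.36 after OGD (SD, n = 5 each).

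With reads pooled over each group, miR-210-5p was 16.2 times higher after OGD in wild-type neurons (39 against 7 reads; exact 95% interval 7.16 to 42.9) and 7.17 times higher in knockout neurons (41 against 21 reads; 4.14 to 12.8). These intervals cover counting error only, and the reads carry no molecular identifiers. The limma fit called both rises, at 2.20 (SE 0.43, adjusted p = 7.5e-04) in wild-type and 1.68 (SE 0.42, adjusted p = 0.00637) in knockout neurons. The pseudocount of 0.5 CPM lies at the level of the normoxic libraries, so these fitted changes understate the ratio. In CPM, the groups did not overlap within either genotype, but the lowest OGD libraries (0.502 CPM from 1 read in wild-type replicate 5, and 0.694 CPM from 2 reads in knockout replicate 4) lay just above the highest normoxic ones (0.378 and 0.682 CPM). The wild-type rise stayed called with centring (1.64, adjusted p = 0.0092) and quantile normalization (1.67, adjusted p = 0.0137), both by limma. The knockout rise was called with centring (1.17, limma adjusted p = 0.033) but not with quantile normalization (1.13, adjusted p = 0.0775). It was also not called when every library was thinned to 1160582 reads (1.61, limma adjusted p = 0.119).

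The share of miR-210 reads on the 5p arm needs no library scaling. Pooled over libraries it was 1.09% in wild-type normoxia (7 of 643 reads; exact 95% interval 0.439% to 2.23%) and 3.05% after OGD (39 of 1278; 2.18% to 4.15%). In knockout neurons it was 1.85% (21 of 1135; 1.15% to 2.81%) and 2.87% (41 of 1428; 2.07% to 3.88%). The 3p arm thus held nearly all miR-210 reads in each group. Per library, the share was 1.31% ± 1.18 and 2.66% ± 0.954 in wild-type neurons (SD, n = 5 each; exact two-sided permutation p = 0.0714, adjusted p = 0.171 over 12 ratio tests). In knockout neurons it was 1.87% ± 0.691 and 2.53% ± 1.15 (exact permutation p = 0.302, adjusted p = 0.452). Neither difference passed the threshold. The knockout difference of 0.66 percentage points ran from 0.31 to 1.05 without 1 library, and was 0.12 at the lowest among the alternatives.

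miR-103-3p was the most abundant of these miRNAs, ranking between 15 and 27 in all 20 libraries. It stood at 8809, 8474, 8674, 9254 and 5528 CPM in wild-type normoxia and at 8654, 7214, 7474, 9732 and 7872 CPM after OGD. The wild-type groups overlapped, with OGD replicate 4 above every normoxic library and normoxia replicate 5, the library that stood apart, below every OGD library. Means were 8148 ± 1492 and 8189 ± 1020 CPM (SD, n = 5 each), a log2 fold change of 0.02 (SE 0.13, 95% interval -0.25 to 0.29; adjusted p = 0.915, limma). Without normoxia replicate 5 it was -0.11.

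Knockout libraries held miR-103-3p at 6919, 8239, 7885, 8626 and 8510 CPM in normoxia and at 8383, 8796, 10632.5, 9475 and 8992 CPM after OGD. OGD replicates 2 to 5 lay above every normoxic library and replicate 1 among them. The log2 fold change was 0.20 (SE 0.08, 95% interval 0.03 to 0.38), with an unadjusted p of 0.0276 and an adjusted p of 0.0921 by limma, so it did not pass the threshold. Over 4 groups the means ran from 8036 ± 686 CPM in knockout normoxia to 9256 ± 864 CPM in knockout OGD (SD, n = 5 each), and every neighbour in that order overlapped. Centring reversed the sign in both genotypes and passed the threshold there, at -0.54 in wild-type (adjusted p = 0.0034, limma) and -0.31 in knockout neurons (adjusted p = 0.030, limma). Quantile normalization gave 0.08 and 0.21, neither called.

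miR-107-3p shares the seed of miR-103-3p but was far less abundant. Wild-type libraries held 849.6, 818.6, 983.5, 808.2 and 476.4 CPM in normoxia and 1076, 944.9, 1059, 976.3 and 944.7 CPM after OGD. Only normoxia replicate 3, at 983.5 CPM, reached into the OGD range, and replicate 5 again was lowest. Means were 787.3 ± 187 and 1000 ± 63.2 CPM (SD, n = 5 each). The log2 fold change of 0.38 (SE 0.15, 95% interval 0.07 to 0.69) had an unadjusted p of 0.0188 and an adjusted p of 0.072 by limma and was not called. Without normoxia replicate 5 it was 0.21 (limma adjusted p = 0.107), and without normoxia replicate 3 it was 0.47 and passed (limma adjusted p = 0.0423).

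In knockout neurons miR-107-3p rose. It stood at 722.8, 883.5, 817.7, 857 and 809.7 CPM in normoxia and at 1081, 1121, 1067, 1076 and 1152 CPM after OGD, with no overlap and little spread within either group. The means were 818.1 ± 61.1 and 1099 ± 36.2 CPM (SD, n = 5 each), a log2 fold change of 0.43 (SE 0.08, 95% interval 0.27 to 0.59; adjusted p = 4.0e-04, limma). Of the 420 features with a mean of at least 3 on the log2 scale, 33.6% lay higher after OGD without overlap and 132 rose by more, so a rise of this size was common. On the centred scale the change was -0.08 (limma adjusted p = 0.535), and with quantile normalization 0.34 (limma adjusted p = 0.0027). Of 11 alternatives, 10 kept the rise and its call, and only centring, which moves all features alike, did not. In wild-type neurons the same scalings gave -0.18 and 0.20, neither called.

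**Figure D3:**
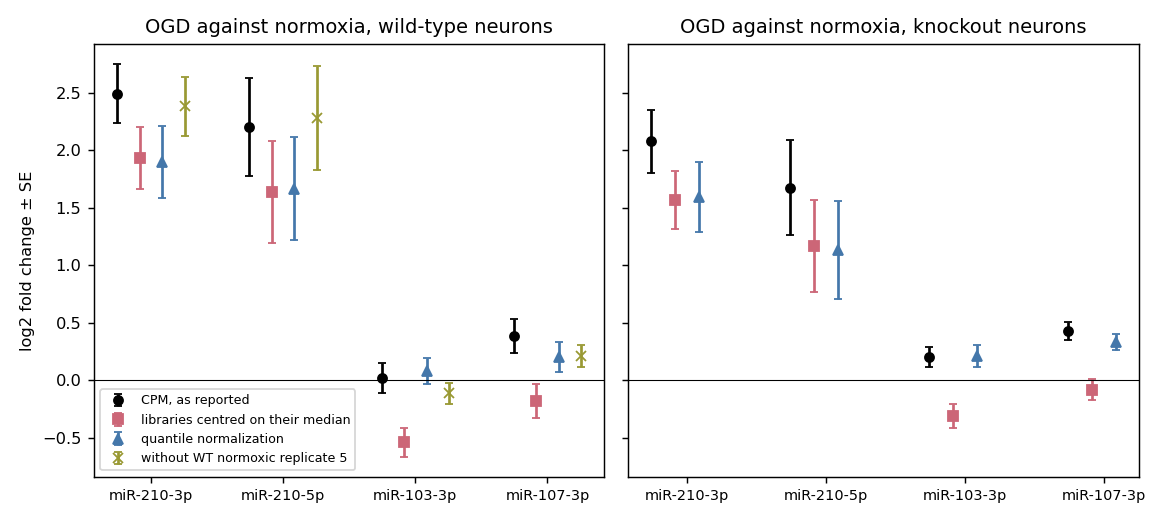
Log2 fold change after OGD ± SE for each miRNA under the authors' scaling, centring, quantile normalization and, for wild type, without normoxia replicate 5. Centring is on each library's median over features with a mean of at least 3. Both miR-210 arms stay above 0 throughout, while miR-103-3p and miR-107-3p cross 0.

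Counting both members of the pair as 1 feature removes the question of how reads between them were divided, provided each such read was counted once. Whether it was is not given in the sources used here. The sum changed by 0.06 in wild-type neurons (limma adjusted p = 0.770) and 0.23 in knockout neurons (limma adjusted p = 0.0529), neither called. This alternative was added after the data were seen. Because miR-103-3p makes up most of the sum, it follows that miRNA.

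In ratios within a library the scaling factor cancels, apart from the 0.5 CPM added to both levels before the log2. With 2 CPM added instead, the differences in the first ratio below were 2.376 and 1.805. The log2 ratio of miR-210-3p to miR-103-3p was -8.79 ± 0.39 in wild-type normoxia and -6.32 ± 0.64 after OGD, a difference of 2.47 (SD, n = 5 each; exact two-sided permutation p = 0.00794, the smallest that 5 against 5 allows; adjusted p = 0.0476 over 12 ratio tests). In knockout neurons it was -8.35 ± 0.62 and -6.47 ± 0.52, a difference of 1.87 (exact permutation p = 0.00794, adjusted p = 0.0476). All 5 OGD libraries exceeded all 5 normoxic ones in each genotype. By medians, miR-103-3p outnumbered miR-210-3p by 460.2 to 1 in wild-type normoxia and 67.6 to 1 after OGD, and by 352.5 and 84.9 to 1 in knockout neurons. Comparisons of level between miRNAs also carry the ligation preference of the library kit, which differs from miRNA to miRNA.

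For each 100 reads of miR-103-3p, wild-type libraries held 9.65, 9.66, 11.3, 8.73 and 8.62 reads of miR-107-3p in normoxia and 12.4, 13.1, 14.2, 10.03 and 12 after OGD. In knockout libraries these were 10.4, 10.7, 10.4, 9.94 and 9.51, then 12.9, 12.7, 10.03, 11.3 and 12.8. In each genotype 4 of 5 OGD libraries lay above all normoxic ones. The mean log2 ratio was higher by 0.36 in wild-type neurons (exact permutation p = 0.0159, adjusted p = 0.0635) and by 0.23 in knockout neurons (exact permutation p = 0.0317, adjusted p = 0.0952). Neither passed after adjustment over the 12 tests. Whether read division moved with it was not tested, and read lengths were not analysed here.

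**Figure D4:**
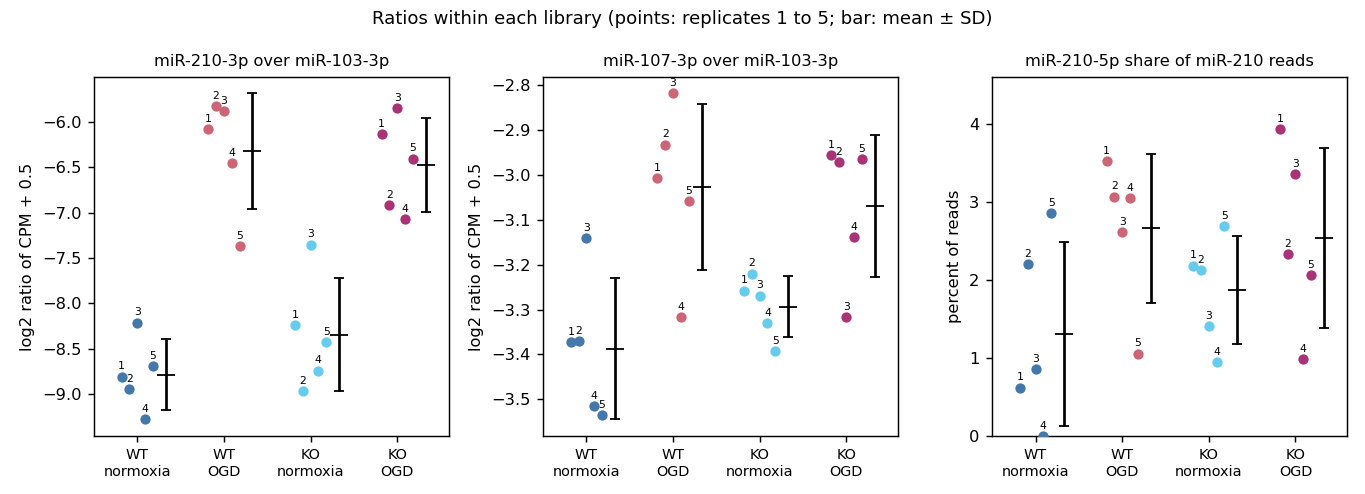
The 3 within-library ratios in each of the 20 libraries by group (log2 of miR-210-3p over miR-103-3p, log2 of miR-107-3p over miR-103-3p, and percent of miR-210 reads on the 5p arm); points carry the replicate number and bars give mean ± SD. The first separates OGD from normoxia fully in both genotypes, and the other ratios overlap.

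Loss of ciRS-7 was compared in each condition. In normoxia, none of the 4 miRNAs differed between knockout and wild type by limma, and neither did any other feature (0 of 1481 called, 0%; 47, or 3.17%, at an unadjusted p under 0.05). miR-210-3p differed by 0.44 (SE 0.27, 95% interval -0.14 to 1.02; adjusted p = 0.984). It was 0.20 without knockout replicate 3, whose 47.7 CPM lay far above the rest of its group. miR-210-5p differed by 0.43 (95% interval -0.03 to 0.90), with 21 pooled reads against 7, a ratio of 2.10 (exact 95% interval 0.862 to 5.86). The intervals of miR-103-3p (-0.28 to 0.28) and miR-107-3p (-0.24 to 0.42) lay around 0.

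After OGD, knockout and wild type again gave 0 of 1481 called features by limma (0%; 108, or 7.29%, at an unadjusted p under 0.05). miR-210-3p differed by 0.03 (SE 0.23, 95% interval -0.44 to 0.49) and miR-210-5p by -0.09 (95% interval -1.04 to 0.86). Without 1 library the difference of miR-210-5p ran from -0.51 to 0.25, with the other sign in 4 of 10 fits. Differences of miR-103-3p and miR-107-3p were 0.18 (95% interval -0.01 to 0.37) and 0.14 (95% interval -0.05 to 0.32), with overlapping groups. Without wild-type OGD replicate 5, the difference of miR-210-3p was -0.25. These intervals leave room for genotype differences of up to their bounds, which are widest for miR-210-5p.

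Whether OGD acted differently in the genotypes was tested as the interaction over all 20 libraries, which was called for 0 of 1481 features by limma (0%; 74, or 5%, at an unadjusted p under 0.05). The knockout change minus the wild-type change was -0.42 for miR-210-3p (SE 0.41, 95% interval -1.26 to 0.43), -0.52 for miR-210-5p (95% interval -1.78 to 0.73), 0.18 for miR-103-3p (-0.15 to 0.51) and 0.05 for miR-107-3p (-0.31 to 0.40). Leaving out 1 library moved the first to -0.69 (without wild-type OGD replicate 5) or -0.17 (without knockout normoxia replicate 3), and the second to -0.95 (without wild-type OGD replicate 5) or -0.18 (without knockout OGD replicate 4). Without 1 library the value for miR-103-3p ran from 0.13 to 0.32. For miR-107-3p the value was 0.22 without wild-type normoxia replicate 5 and -0.04 without replicate 3, and none of these passed. So although miR-107-3p passed in knockout and not in wild-type neurons, its 2 changes, 0.43 and 0.38, were not shown to differ.

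The passenger arms of the miR-103 and miR-107 hairpins, which come from the same transcripts, were nearly absent. miR-103-1-5p, miR-103-2-5p and miR-107-5p reached at most 2, 4 and 3 reads in any library. None of the 3 was called in any comparison by limma, where OGD called 23.1% and 24.5% of all features. With reads pooled, miR-103-2-5p was 8.71 times higher after OGD in wild-type neurons (6 against 2 reads; exact 95% interval 1.56 to 88.3) and 5.25 times in knockout neurons (10 against 7; 1.80 to 16.2). The ratio of miR-103-1-5p was 2.90 (2 against 2; 0.211 to 40.1) and 9.18 (5 against 2; 1.50 to 96.4), and that of miR-107-5p was 4.36 (6 against 4; 1.03 to 21.0) and 3.67 (3 against 3; 0.492 to 27.4). These intervals cover counting error and not the spread between libraries.

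miR-103 and miR-107 belong to a wider group with miR-15 and its relatives, which shares the letters AGCAGC near the 5′ end and is known for targeting cell cycle genes. In miR-103-3p and miR-107-3p these letters start at base 1, but in the 8 other listed members that hold them they start at base 2, which shifts the seed, in capitals, by 1 base. miR-497b, listed by its name, does not hold them.
miR-16-5p: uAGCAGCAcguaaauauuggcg
miR-15a-5p: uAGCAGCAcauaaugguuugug
miR-107-3p: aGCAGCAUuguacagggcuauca
Of 9 other members measured, 6 rose in wild-type neurons after OGD, 0 fell and 3 were not called by limma, with a median log2 fold change of 0.54 against 0.32 over all features, of which 18.7% were called higher. In knockout neurons 5 rose and 0 fell, with a median of 0.52 against 0.24 over all features, of which 18.8% were called higher. These shares are not a like-for-like background, because most listed members were more abundant than many of all features. In wild-type neurons 27.3% of features with a mean of at least 3 lay higher without overlap, against 13.5% of all features. In knockout neurons these were 33.6% and 15.3%. Whether the list exceeded features of like level was not tested. The largest rise called in wild-type neurons was that of miR-15a-5p, from 36.7 ± 12.2 to 60.5 ± 8.46 CPM (SD, n = 5 each), a log2 fold change of 0.78 (SE 0.22, adjusted p = 0.0155, limma). Without normoxia replicate 5 its change was 0.54, below those of miR-16-5p (0.63), miR-195a-5p (0.56) and miR-503-5p (0.56). miR-503-5p changed by 0.66 and miR-322-5p by 0.51 in the same comparison, both called. With centring, 0 of the 9 passed in either genotype, and with quantile normalization 1 did. Over all features, 108 of 1478 passed as higher with centring and 141 with quantile normalization in wild-type neurons, and 112 and 141 of 1479 in knockout neurons. In both genotype comparisons 0 of the 9 were called.

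**Figure D5:**
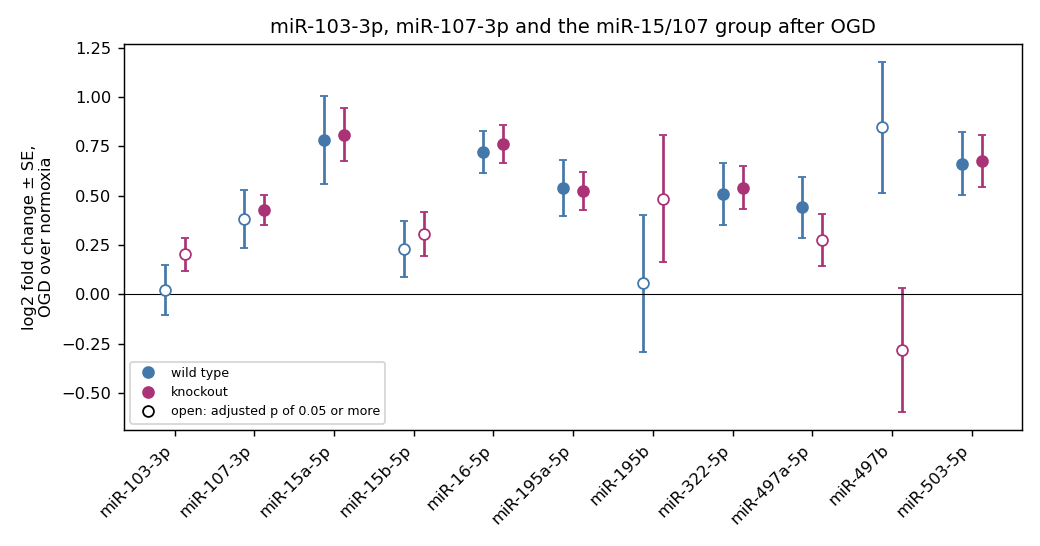
Log2 fold change after OGD ± SE for miR-103-3p, miR-107-3p and the other members of the group of miR-15 and miR-107 in wild-type and knockout neurons, open points for an adjusted p of 0.05 or more. miR-103-3p lies at 0.02 and 0.20, below miR-15a-5p at 0.78 and 0.81.

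Other miRNAs that have been linked to hypoxia or ischaemia, a list of 16 that were all measured, gave 8 higher, 0 lower and 8 not called in wild-type neurons (median 0.39, against 0.32 over all features, of which 18.7% were called higher). In knockout neurons there were 11 higher, 0 lower and 5 not called (median 0.43, against 0.24 and 18.8%). Most of this list, too, was more abundant than many of all features, so those shares are not a like-for-like background. Whether the list exceeded features of like level was not tested. miR-23a-3p had the largest rise called in wild-type neurons, 1.00 (SE 0.13, adjusted p = 1.0e-05, limma), and changed by 0.97 in knockout neurons. Its cluster partners miR-27a-3p and miR-24-3p were named after their values were seen. miR-27a-3p rose by 0.60 and 0.47, both called, and changed by 0.035 and -0.041 when centred, neither called. miR-24-3p changed by -0.0042 and -0.10 and was called lower when centred (-0.57 and -0.61). miR-210-3p changed by 2.49 and 2.08 in the same fits. With centring the counts became 2 higher and 5 lower in wild-type, and 2 higher and 4 lower in knockout neurons, and miR-23a-3p remained called (0.44 and 0.46). Quantile normalization called 7 as higher and 0 as lower in wild-type neurons, against 8 and 1 in knockout neurons. Over all features the higher and lower calls were 108 and 265 of 1478 (wild type) and 112 and 324 of 1479 (knockout) when centred, and 141 and 191, and 141 and 186, by quantiles.

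The miRNAs whose level over the 20 libraries was most like that of miR-210-3p, by Pearson's r of log2(CPM + 0.5) among 422 features, were miR-16-5p (r = 0.94), miR-130b-3p (0.94) and miR-350-3p (0.93). miR-16-5p changed from 1597 ± 218 to 2618 ± 181 CPM in wild-type neurons (SD, n = 5 each), a log2 fold change of 0.72, far less than miR-210-3p. Nearest to miR-107-3p were miR-136-3p (r = 0.94), miR-15a-5p (0.93) and miR-708-5p (0.92). Nearest to miR-103-3p were miR-20a-5p (r = 0.86), miR-17-5p (0.80) and miR-340-5p (0.78), all with lower correlations. miR-103-3p and miR-107-3p correlated at r = 0.71. By this measure miR-107-3p was number 11 among the neighbours of miR-103-3p, and miR-103-3p number 84 among those of miR-107-3p. miR-210-3p correlated at 0.74 with miR-107-3p and 0.34 with miR-103-3p. These values describe libraries that share a scaling and, within a group, a treatment, and the part of the difference between normoxia and OGD in them was not tested. miR-210-5p was too low for this measure.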

How the data were processed

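Small RNA libraries were made from DNase-treated TRIzol RNA with the NEBNext small RNA kit and size selection, per the labels' protocols, and the build was mm10, per the submitters' processing notes; aligner, counter and miRNA annotation are not given in the sources used here. The authors deposited 6 tables of a score per feature and library. The score is not log2 CPM: the tables' maxima are 35.8 to 37.3, whereas a log2 CPM cannot exceed 19.9. From the values, each score is whole reads times a library factor, raised to a power (0.106 to 0.118), with the extremes of each group of 5 pulled 64% of the way to their neighbours; undoing this gave whole reads for 100% of values (tolerance 0.05), against 73.47 to 75.44% without restoring the extremes. These steps are inferred, not stated by the authors.

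CPM was computed with the authors' factors (0.923 to 1.08). All features of a comparison (1478 to 1481) were fitted together on log2(CPM + 0.5) with limma 3.58.1 (R 4.3.3; eBayes with trend, two-sided, Benjamini-Hochberg, threshold 0.05). The 12 ratio tests were exact permutation tests over libraries (scipy 1.17.1), adjusted together. Intervals of pooled reads are exact at 95%. No 2 libraries of a group agreed within sampling noise (chi-square per degree of freedom at least 16.5). The steps were tested on simulated data. Alternatives were total-read scaling, centring, quantile normalization, filters, pseudocounts, voom, the score itself, thinning, 1 fit over all groups, a replicate block and leaving out each library.

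Besides the members, miRNAs were named by rule. These were the 3 most correlated with each member, and from each list the largest rise and fall called in wild-type neurons. Named after their values were seen were 3 further members of the group of miR-15 and miR-107, the cluster partners of miR-23a-3p, and single markers. Members and lists were chosen with earlier results of these data known.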

Additional observations from a re-analysis of the deposited data

Results flagged for a closer look

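Groups of 5 libraries were screened for a highest or lowest library whose gap to its nearest neighbour exceeded 0.71 of the group's range; 3 of 28 groups met this, and chance alone flags about 1 in 20. miR-210-3p in wild-type OGD replicate 5 was 47.18 CPM, low against the other 4 libraries (gap over range 0.785). miR-210-3p in knockout normoxia replicate 3 was 47.74 CPM, high against its group (0.742). miR-103-3p in wild-type normoxia replicate 5 was 5528.4 CPM, low against its group (0.791), and this is the library that stood apart on the first principal component.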

How the results depend on the processing

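The rise of miR-210-3p kept its direction and passed the threshold under all 12 alternatives in each genotype (1.90 to 2.97 in wild type, 1.57 to 2.21 in knockout, the highest value of each in score units) and in every fit without 1 library. Centring reversed miR-103-3p to -0.54 in wild-type and -0.31 in knockout neurons and miR-107-3p to -0.081 in knockout neurons. miR-103-3p in knockout neurons passed the threshold with features of at least 1 CPM (0.20), on the deposited score (0.31 score units) and with voom (0.21). miR-107-3p in wild-type neurons passed with total reads (0.40), on the score (0.48) and in 1 fit over 4 groups (0.38). miR-210-5p in knockout neurons did not pass with quantile normalization (1.13) or thinning (1.61). In the score the extremes of each group are pulled in, which narrows the spread that limma tests against. A pass or count on the score, here and below, is therefore not like for like with the other fits. The cause of the other changes was not tested.

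Features called numbered 693 with voom in wild-type neurons, and 231 with thinning and 784 with voom in knockout neurons. For genotype they numbered 33 on the score in normoxia, and 72 on the score and 4 in 1 fit over 4 groups after OGD. Without 1 library each, the wild-type change of miR-107-3p ran from 0.21 to 0.47, features called for genotype after OGD from 0 to 22 (22 without knockout OGD replicate 5) and for the interaction from 0 to 1 (1 without wild-type OGD replicate 1). The difference in the ratio of miR-210-3p to miR-103-3p ran from 2.35 to 2.73 in wild-type and 1.72 to 2.12 in knockout neurons. It passed in 0 of 10 wild-type and 1 of 10 knockout fits. There, 4 against 5 libraries cannot go below an exact permutation p of 0.0159. The difference for miR-107-3p to miR-103-3p in knockout neurons ran from 0.20 to 0.29 and passed in 1 of 10 fits.

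Replicate numbers did not meet the rule used for pairing, that every same-number pair correlate above 0.1. The correlations ran from -0.17 to 0.66 for wild-type and -0.21 to 0.49 for knockout OGD against normoxia, with 4 of 5 above 0.1 in each and 4 and 3 of 5 best with their own number, a hint of pairing from the data and not the design. With the replicate block 389 and 403 features were called, miR-107-3p passed in wild-type (0.38) and miR-103-3p in knockout neurons (0.20), and the miR-210-3p to miR-103-3p ratios (2.47 and 1.87) could not pass, as 5 pairs allow no exact permutation p below 0.0625.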
